A study of Mus musculus with 7 samples.

Results

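The genes described here are Igf1, both IGF receptor genes (Igf1r and Igf2r) and the binding protein genes Igfbp2, Igfbp3, Igfbp4, Igfbp5, Igfbp6 and Igfbp7, 9 of the 22180 genes measured. They were taken by symbol, each from the array probe set annotated to that gene alone, and each had exactly 1 such probe set. Total RNA of C57Bl/6 mice was measured on 1-colour arrays in 3 blastemas taken 2 weeks after digit amputation and in 4 uninjured digits. A blastema is the mass of cells that forms at the amputated tip and rebuilds it. Genotype, age, sex and the number of digits or animals behind each sample were not stated in the sources used here, and no genetic alteration is named for either group.

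Insulin-like growth factors are secreted ligands that drive growth and survival of many cell types, bone-forming cells among them. IGF1 signals through the receptor tyrosine kinase IGF1R, while IGF2R, which is also a mannose 6-phosphate receptor, clears IGF2 and carries lysosomal enzymes. IGF-binding proteins hold the ligands in blood and matrix and can block or prolong their action, and proteases such as PAPP-A cut some of them and free the ligand.

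Levels are RMA values on a log2 scale, so a difference of 1 is a doubling of signal. Array medians ran from 5.53 to 5.58, and arrays correlated across genes at 0.988 to 0.992 within blastemas, 0.986 to 0.991 within uninjured digits and 0.964 to 0.979 between the groups. The table has no detection calls. Olfactory receptor genes, which skin and bone are not known for, stand in for background, and 95 percent of the 1105 measured had a mean level under 5.52. All 9 genes lay above it in both groups. The 7 arrays limit the precision. Every level comes from tissue as a whole, in which fewer cells of a type and less RNA per cell cannot be told apart.

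Binding protein genes moved both ways in the blastema. Igfbp5, Igfbp7 and Igfbp4 rose to 1.92, 1.89 and 1.84 times the uninjured level, while Igfbp6 and Igfbp2 fell to 0.575 and 0.69 times. Igfbp3, Igf1, Igf2r and Igf1r had higher means in the blastema and did not pass the test. By limma with Benjamini-Hochberg adjustment over all genes, 3 of the 9 genes were called higher at an adjusted p under 0.05, against 4.98% of all genes, and 2 were called lower, against 4.66%. The blastema and uninjured arrays did not overlap in any of the 9. Of them 7 lay higher, against 10.4% of all genes, and 2 lower, against 10.6%. Igfbp1, a measured binding protein gene outside the 9 and outside the naming rule given below, did overlap between the groups. Its log2 fold change was 0.14 (limma adjusted p = 0.288). Its means, 5.34 in blastema and 5.2 in uninjured digit, lay under the background stand-in. The median log2 fold change of the 9 genes was 0.41, beside -0.005 over all genes. These shares and this median over all genes include genes at background. Of all genes 58.1% had a mean level above the background stand-in, as had all 9 here. The 9 genes were also chosen with earlier results of these data known. Their counts and median beside those of all genes are thus a description and not a test.

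**Figure D1:**
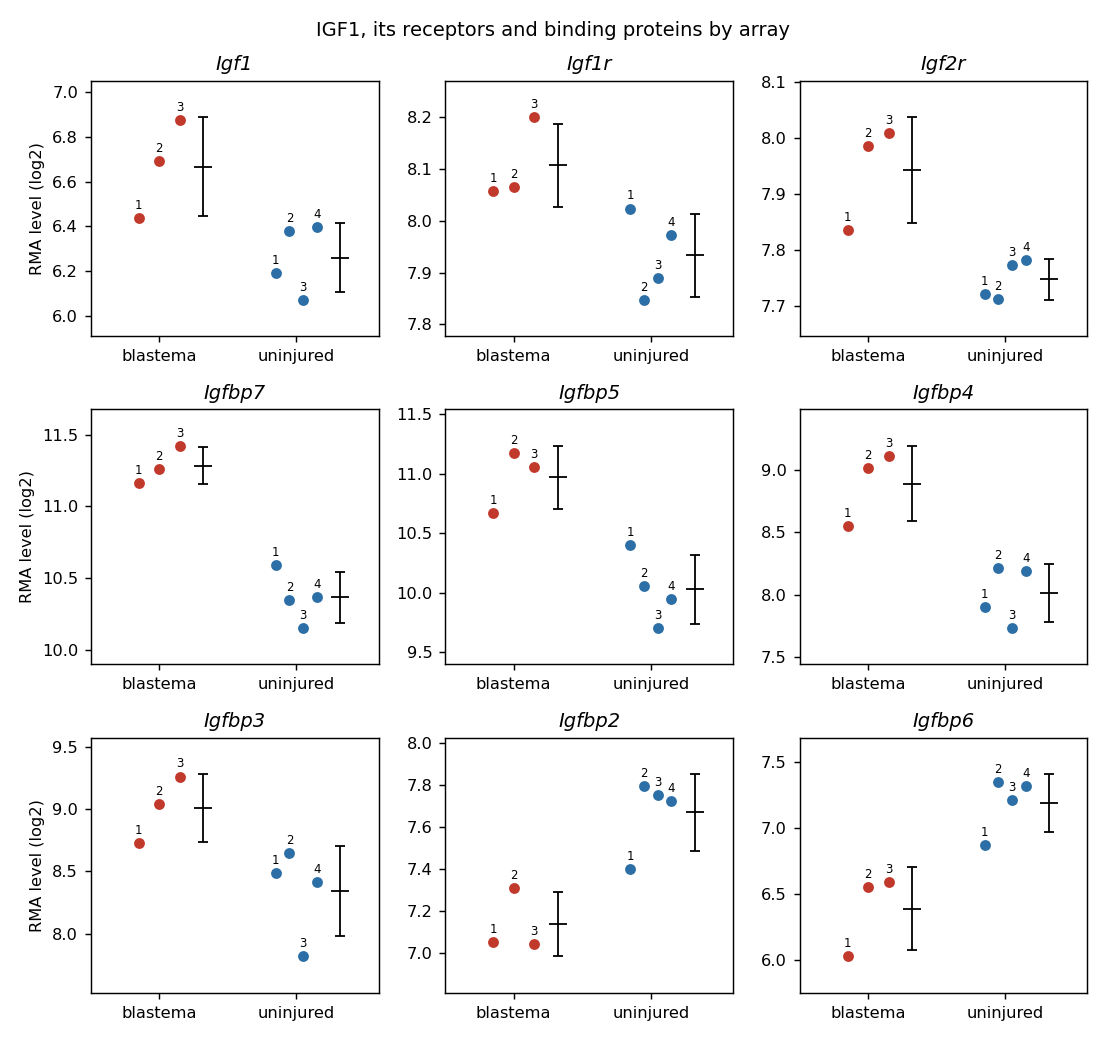
RMA level (log2) of each gene in the 3 blastema arrays (red, left) and the 4 uninjured arrays (blue, right), each point marked with its replicate number. Black bars are the mean ± SD, and the vertical scale differs between panels. In each panel the groups do not overlap, with the widest gap, 0.573, in Igfbp7 and the narrowest, 0.033, in Igf1r.

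Igf1, the ligand gene, lay at 6.44, 6.69 and 6.88 in the blastemas and at 6.19, 6.38, 6.07 and 6.40 in the uninjured digits. The lowest blastema and the highest uninjured digit were 0.041 apart. The log2 fold change was 0.41 (95% interval 0.11 to 0.70, limma adjusted p = 0.0942), which as a fold is 1.33 (1.08 to 1.63). With arrays scaled to reference genes it was 0.10 (limma adjusted p = 0.485). The reference genes themselves changed by -0.82 (Rplp0) to 1.34 (B2m), and this scaling moved the median of all genes to -0.313. That limit applies to each later value under this scaling. Over the 7 omissions of 1 array the log2 fold change of Igf1 ran from 0.30 (limma adjusted p = 0.274) to 0.52. Igf1 passed in 1 of them, that of blastema replicate 1 (limma adjusted p = 0.045).

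Igf1r, whose product passes the IGF1 signal into the cell, was measured at 8.06, 8.06 and 8.20 in the blastemas, against 8.02, 7.85, 7.89 and 7.97 in the uninjured digits. The groups were apart by less than the range within each of them, 0.143 in blastema and 0.176 in uninjured digit. Its log2 fold change was 0.17 (95% interval 0.01 to 0.34, limma adjusted p = 0.183). Igf2r, the scavenging receptor, stood at 7.83, 7.99 and 8.01 in the blastemas and at 7.72, 7.71, 7.77 and 7.78 in the uninjured digits. Its uninjured arrays lay within 0.071 of each other, the narrowest spread of the 9 genes. For this gene the log2 fold change was 0.20 (95% interval 0.04 to 0.35, limma adjusted p = 0.115). With arrays scaled to reference genes both receptor genes changed sign, to -0.13 for Igf1r and -0.11 for Igf2r, and neither passed. Igf2r passed without blastema replicate 1 (0.25, limma adjusted p = 0.0494).

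Igfbp7 encodes a protein of matrix and vessel walls that binds IGFs more weakly than the classical binding proteins. It gave 11.17, 11.26 and 11.42 in the blastemas and 10.59, 10.35, 10.15 and 10.37 in the uninjured digits. Every blastema stood at least 0.573 above every uninjured digit. The log2 fold change was 0.92 ± 0.11 (SE, limma adjusted p = 0.00479), a fold of 1.89 (95% interval 1.57 to 2.27). It was called in all 7 omissions of 1 array, with adjusted p of 0.00621 to 0.0289, and it was the sole gene of the 9 of which that held.

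Igfbp5 encodes a binding protein that attaches to bone mineral and matrix. Its levels were 10.67, 11.18 and 11.06 in the blastemas, against 10.40, 10.06, 9.70 and 9.95 in the uninjured digits. Uninjured replicate 1 came nearest to the blastemas, 0.269 below the lowest of them. Igfbp5 rose by 0.94 ± 0.18 (SE, limma adjusted p = 0.0215) on the log2 scale, a fold of 1.92 (95% interval 1.43 to 2.59). The call was lost without blastema replicate 2 or 3 or uninjured replicate 2, 3 or 4 (limma adjusted p = 0.089, 0.0948, 0.0643, 0.0543 and 0.0659), with log2 fold changes of 0.83 to 1.09 over the 7 omissions.

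Igfbp4 encodes a binding protein known mainly as an inhibitor of IGF action and as a substrate of PAPP-A. It was measured at 8.55, 9.02 and 9.11 in the blastemas and at 7.90, 8.22, 7.73 and 8.19 in the uninjured digits. The gap between the groups was 0.33, narrower than the range within either. Igfbp4 rose by 0.88 ± 0.17 (SE, limma adjusted p = 0.0218) on the log2 scale, a fold of 1.84 (95% interval 1.39 to 2.43). The call was lost without blastema replicate 2 or 3 or uninjured replicate 1 or 3 (limma adjusted p = 0.0919, 0.0939, 0.0548 and 0.0586).

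Igfbp3 encodes the main IGF carrier of blood. Its blastema levels of 8.73, 9.04 and 9.26 stood above the uninjured levels of 8.48, 8.65, 7.82 and 8.41. Uninjured replicate 3 lay well under the other uninjured digits, and the uninjured range of 0.834 was the widest of the 9 genes. Igfbp3 had a log2 fold change of 0.67 (95% interval 0.17 to 1.17, limma adjusted p = 0.102), and it did not pass in any of the 7 omissions of 1 array (adjusted p = 0.0904 to 0.305).

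Igfbp6 encodes a binding protein that prefers IGF2 to IGF1. It lay at 6.03, 6.55 and 6.59 in the blastemas, against 6.87, 7.35, 7.21 and 7.32 in the uninjured digits. Replicate 1 was the lowest array of both groups, and the groups stayed 0.28 apart. Igfbp6 had a log2 fold change of -0.80 ± 0.17 (SE, limma adjusted p = 0.0299), so that the blastema level was 0.575 times the uninjured one (95% interval 0.435 to 0.76). The call was lost in each omission of 1 array except that of uninjured replicate 1 (limma adjusted p = 0.0501 to 0.0875), and the log2 fold change stayed between -0.90 and -0.62.

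Igfbp2 encodes a binding protein abundant in serum and in fetal tissues. It gave 7.05, 7.31 and 7.04 in the blastemas and 7.40, 7.80, 7.75 and 7.73 in the uninjured digits. Blastema replicate 2 and uninjured replicate 1 were the nearest arrays of the groups, 0.089 apart. Igfbp2 had a log2 fold change of -0.53 ± 0.12 (SE, limma adjusted p = 0.0332), which puts the blastema at 0.69 times the uninjured level (95% interval 0.569 to 0.837). The call was lost in each omission of 1 array except that of uninjured replicate 1 (limma adjusted p = 0.0544 to 0.129), and when all probe sets of the array were tested together (limma adjusted p = 0.0521).

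**Figure D2:**
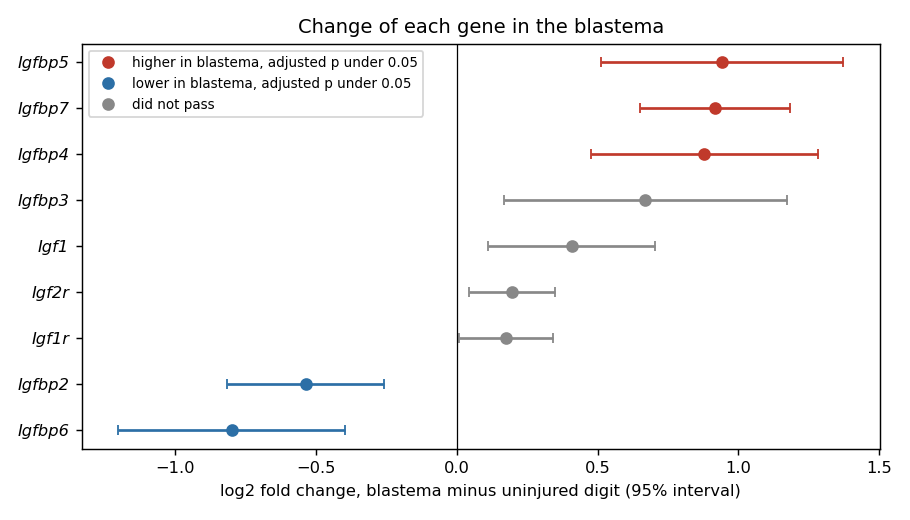
log2 fold change of each gene, blastema minus uninjured digit, with its 95% interval from the limma fit on 3 blastema and 4 uninjured arrays. Igfbp5, Igfbp7 and Igfbp4 (red) were called higher and Igfbp6 and Igfbp2 (blue) lower, and the 4 grey genes did not pass although their intervals lie above 0.

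The promoters of the 5 called binding protein genes are printed to set those that rose beside those that fell. Each is the 300 bases from 250 before to 50 after the most upstream start listed by RefSeq on GRCm38.p6, on the coding strand. They are chr5:77407996-77408295 (minus) for Igfbp7, chr1:72874816-72875115 (minus) for Igfbp5, chr11:99040994-99041293 (plus) for Igfbp4, chr15:102143936-102144235 (plus) for Igfbp6 and chr1:72824230-72824529 (plus) for Igfbp2. Capitals mark matches, on either strand, to the TATA box TATAAA, the CCAAT box CCAAT, the GC box GGGCGG or the AP-1 site TGANTCA.
Igfbp7: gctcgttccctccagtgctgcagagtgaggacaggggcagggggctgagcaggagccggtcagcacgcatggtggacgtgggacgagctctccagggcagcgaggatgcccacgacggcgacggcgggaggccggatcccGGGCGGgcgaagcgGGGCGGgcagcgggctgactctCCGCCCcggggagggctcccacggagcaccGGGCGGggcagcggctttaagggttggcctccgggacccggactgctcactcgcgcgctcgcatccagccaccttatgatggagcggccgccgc
Igfbp5: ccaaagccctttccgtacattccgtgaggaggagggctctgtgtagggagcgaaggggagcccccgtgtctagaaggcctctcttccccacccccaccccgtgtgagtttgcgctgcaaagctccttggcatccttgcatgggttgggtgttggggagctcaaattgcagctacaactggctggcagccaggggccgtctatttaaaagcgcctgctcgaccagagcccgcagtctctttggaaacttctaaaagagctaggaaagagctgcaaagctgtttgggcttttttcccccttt
Igfbp4: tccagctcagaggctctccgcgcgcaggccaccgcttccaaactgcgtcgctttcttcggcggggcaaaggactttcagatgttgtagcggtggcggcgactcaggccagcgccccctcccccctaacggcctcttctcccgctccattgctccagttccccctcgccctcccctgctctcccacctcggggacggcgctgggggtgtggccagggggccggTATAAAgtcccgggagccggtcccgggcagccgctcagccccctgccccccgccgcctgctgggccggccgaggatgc
Igfbp6: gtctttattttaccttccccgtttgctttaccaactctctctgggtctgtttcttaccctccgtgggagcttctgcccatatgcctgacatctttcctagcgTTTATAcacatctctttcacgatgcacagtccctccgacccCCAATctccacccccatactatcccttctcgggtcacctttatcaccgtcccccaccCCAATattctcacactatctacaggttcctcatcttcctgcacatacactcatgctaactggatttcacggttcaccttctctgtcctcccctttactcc
Igfbp2: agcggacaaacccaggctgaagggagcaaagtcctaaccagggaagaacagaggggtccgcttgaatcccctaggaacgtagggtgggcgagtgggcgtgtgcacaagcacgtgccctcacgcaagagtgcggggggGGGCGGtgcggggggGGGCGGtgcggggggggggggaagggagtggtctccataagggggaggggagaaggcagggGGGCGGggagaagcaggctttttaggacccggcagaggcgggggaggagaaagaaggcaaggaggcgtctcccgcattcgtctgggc

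The promoters of the genes that rose did not share a motif among those searched. Igfbp7 held 4 GC boxes and 33 CpG pairs, Igfbp4 held a TATA box that begins at position -28 from the start and 27 CpG pairs, and Igfbp5 held none of the 4 motifs and 10 CpG pairs. Of the genes that fell, Igfbp2 held 3 GC boxes and 18 CpG pairs. Igfbp6 held 2 CCAAT boxes, a TATA box match on the opposite strand at position -148, and 8 CpG pairs. Among all 32851 promoters of the table, 35.7% held the GC box, 13.6% the TATA box, 37.4% the CCAAT box and 7.8% the AP-1 site, and the median was 7 CpG pairs. The arrays measured RNA and not binding, so these matches describe the sequence alone.

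The arrays of a group kept a common order in several of the 9 genes. Blastema replicate 1 was the lowest blastema in 8 of the 9 genes, Igfbp2 being the exception, and blastema replicate 3 was the highest in 7. How often each array was lowest or highest over all genes was not counted. Uninjured replicate 3 was the lowest uninjured digit in 5 genes, Igf1, Igfbp3, Igfbp4, Igfbp5 and Igfbp7. The fibroblast list had the same lowest arrays. Its mean level over 8 genes, such as Pdgfra and Col3a1, was 9.42, 10.05 and 10.12 in the blastemas and 8.40, 8.70, 7.74 and 8.42 in the uninjured digits, lowest in blastema replicate 1 and uninjured replicate 3. So were the osteoblast, chondrocyte and macrophage lists. The osteoclast and endothelial lists were lowest in blastema replicate 1 and in uninjured replicate 1 (5.53 and 6.03), and the epidermis list was lowest in blastema replicate 3 (10.53) and highest in uninjured replicate 3 (10.90). Of the fibroblast markers 4 of 8 were called higher and 0 lower, against 4.98% and 4.66% of all genes.

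Markers of other cell types also differed between the groups. The counts below are of genes called by limma, beside 4.98% of all genes called higher and 4.66% lower. The 6 osteoblast genes measured all rose, with mean levels of 9.17 to 9.64 in blastema and 5.83 to 6.76 in uninjured digit. Of 8 osteoclast genes 7 rose (7.20 to 7.97 in blastema, 5.53 to 5.71 in uninjured digit), as did 4 of 8 chondrocyte genes (6.72 to 7.02, against 5.65 to 6.21 in uninjured digit) and 4 of 8 macrophage genes (6.61 to 6.98, against 6.14 to 6.38 in uninjured digit). Of 8 endothelial genes 2 rose (6.64 to 7.17, against 6.03 to 6.58 in uninjured digit). Of 7 epidermis genes 0 rose and 2 fell (10.53 to 10.69, against 10.84 to 10.90 in uninjured digit). Of 6 Schwann cell genes 0 rose and 1 fell (6.635 to 6.697, against 6.701 to 6.817 in uninjured digit). None of the 8 adipocyte or 8 skeletal muscle genes was called by limma, with 1 adipocyte gene lower and 0 muscle genes either way at an unadjusted p under 0.05. Their mean levels, 5.36 to 5.43 and 5.08 to 5.14 in blastema and 5.21 to 5.37 and 5.06 to 5.21 in uninjured digit, lay under the background stand-in. Single genes lay on both sides of it. Fabp4 (6.766 in blastema, 5.754 in uninjured digit) and Acta1 (6.585 and 6.438) were above, and Adipoq (3.967 and 4.078) and Myh4 (3.829 and 4.16) were below. The part of these cell types in the changes of the IGF genes was not tested.

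**Figure D3:**
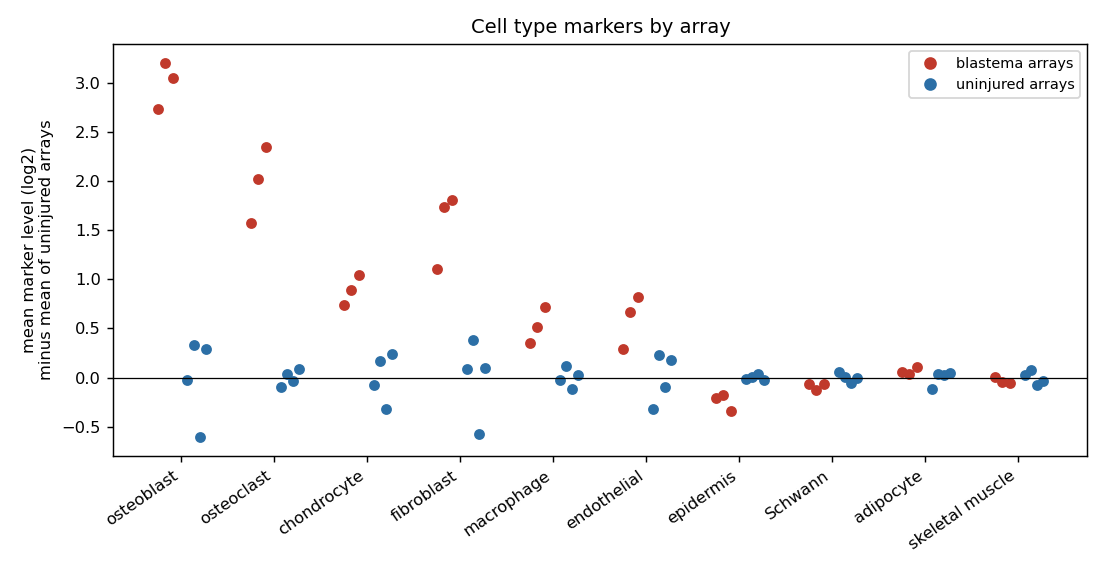
Mean RMA level (log2) of each cell type marker list on each array, minus the mean of the uninjured arrays, for the 3 blastemas (red, left) and the 4 uninjured digits (blue, right). Osteoblast, osteoclast, chondrocyte, fibroblast, macrophage and endothelial markers lie higher on every blastema array than on every uninjured array. Epidermis markers lie lower, as do Schwann cell markers by a narrow margin (mean levels up to 6.697 in blastema and from 6.701 in uninjured digit).

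Pappa and Adam12, whose products cut binding proteins, rose in the blastema. Of 8 genes of IGFBP proteases and their inhibitors, 2 were called higher, against 4.98% of all genes, and 0 lower (list median 0.40 on the log2 scale). Pappa, the gene of the protease PAPP-A, which cuts IGFBP4, lay at 7.28, 7.81 and 7.93 in the blastemas and at 6.23, 6.60, 6.69 and 6.98 in the uninjured digits. The groups did not overlap, and the log2 fold change was 1.05 ± 0.21 (SE, limma adjusted p = 0.0234). Adam12, a metalloprotease gene whose human product cuts IGFBP3 and IGFBP5, gave 7.49, 7.75 and 7.89 in the blastemas, against 5.93, 5.96, 5.77 and 5.76 in the uninjured digits. Its log2 fold change of 1.86 ± 0.11 (SE, limma adjusted p = 0.00122) was the largest in the pathway lists, and it passed under all 16 alternative settings, which are the 7 omissions and 9 others. Pappa did not pass without blastema replicate 2 or 3 or uninjured replicate 2 or 3 (limma adjusted p = 0.0973, 0.101, 0.0717 and 0.0664).

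Other ligands and carriers showed no called gene. Of 7 measured genes of IGF ligands, insulin receptors and carriers, 0 were called by limma, and 1, Ins2, was higher at an unadjusted p under 0.05 (0.22, limma adjusted p = 0.158, with both group means under the background stand-in). Igf2, the second IGF ligand gene, named here outside the rule and with its values known, gave 7.33, 7.11 and 7.26 in the blastemas and 7.11, 7.11, 6.60 and 7.09 in the uninjured digits. The groups met at 7.11, and uninjured replicate 3 stood alone below. On the log2 scale the difference was 0.25 (limma adjusted p = 0.32), and it was -0.054 with arrays scaled to reference genes. Igf2bp3, the sole measured gene of the IGF2 mRNA-binding proteins, was under the background stand-in in both groups (-0.22, limma adjusted p = 0.181).

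In the growth hormone axis, which sets IGF1 production in liver, 1 of 7 genes was called higher, against 4.98% of all genes, and the count rests on that gene alone. It was Jak2, the kinase bound to the growth hormone receptor and to many cytokine receptors, at 8.22, 8.60 and 8.73 in the blastemas and 7.68, 7.96, 7.79 and 8.07 in the uninjured digits. The lowest blastema lay above the highest uninjured digit, with a log2 fold change of 0.64 ± 0.14 (SE, limma adjusted p = 0.0365). The call was lost in 9 of 16 alternative settings (limma adjusted p up to 0.131). The list median was 0.03.

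Among genes that carry the signal inside the cell, 2 of 23 were called higher and 1 lower, near the shares of all genes (4.98% and 4.66%), with a median of 0.02. Akt1, a kinase gene central to survival and growth, rose (0.33 ± 0.07 SE, limma adjusted p = 0.0344), as did Tsc2, a brake on mTOR (0.31 ± 0.07 SE, limma adjusted p = 0.034). Pik3cb, a catalytic PI3-kinase subunit gene, fell (-0.49 ± 0.09 SE, limma adjusted p = 0.0198). With reference gene scaling Akt1 stood at 0.02 and Tsc2 at 0.002 and neither passed (limma adjusted p = 0.895 and 0.989). Akt1 lost its call in 12 of 16 settings, Tsc2 in 8 and Pik3cb in 6.

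Of 7 genes that restrain the receptor signal, 1 was called higher, against 4.98% of all genes, with a list median of 0.28. Grb10, an imprinted gene whose adaptor protein binds and damps the insulin and IGF1 receptors, lay at 8.34, 8.97 and 9.14 in the blastemas, against 7.36, 6.996, 6.66 and 6.94 in the uninjured digits. All 3 blastemas stood above all 4 uninjured digits. Grb10 rose by 1.82 ± 0.22 (SE, limma adjusted p = 0.00466) on the log2 scale, or 3.54-fold, and passed in 15 of 16 settings, all but the block for the replicate number (1.81, limma adjusted p = 0.0632).

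Of 7 genes of the mannose 6-phosphate system that IGF2R serves, 1 was called higher, 1 lower and 5 neither way, with a median of 0.09, beside 4.98% and 4.66% of all genes. M6pr, the gene of the other mannose 6-phosphate receptor, was higher (0.44 ± 0.09 SE, limma adjusted p = 0.0246). Gnptg, a subunit gene of the enzyme that builds the mannose 6-phosphate tag, was lower (-0.46 ± 0.09 SE, limma adjusted p = 0.0246). With reference gene scaling M6pr was at 0.13 (limma adjusted p = 0.344). M6pr lost its call in 8 of 16 settings and Gnptg in 7.

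**Figure D4:**
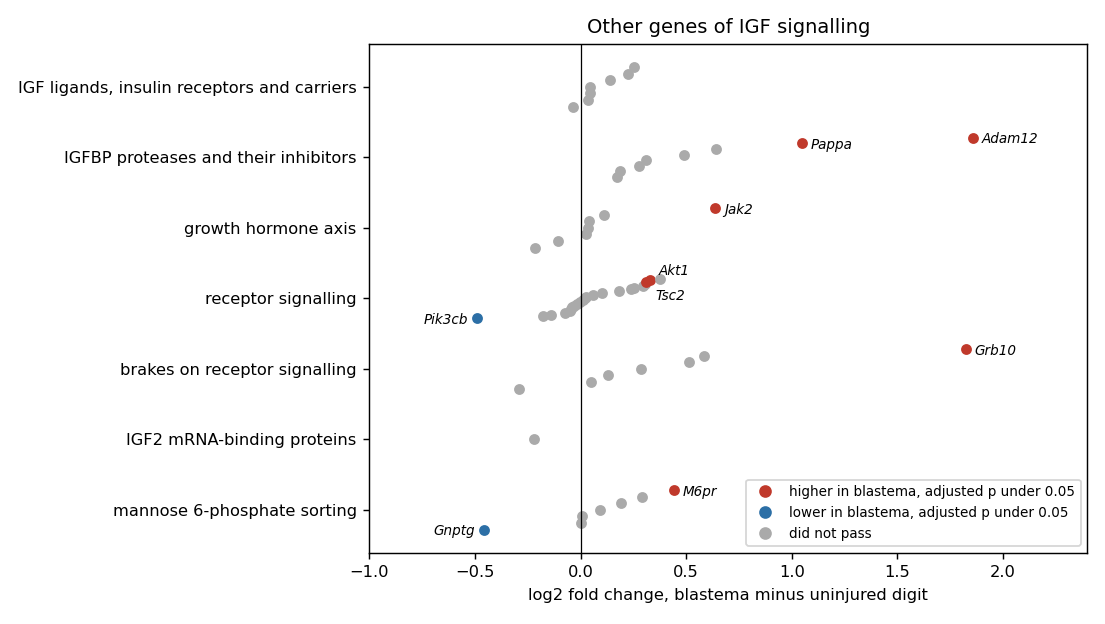
log2 fold change, blastema minus uninjured digit, of each measured gene in 7 lists of the IGF pathway (3 blastema and 4 uninjured arrays). Red genes were called higher and blue genes lower by limma at an adjusted p under 0.05, led by Adam12 (1.86) and Grb10 (1.82), and grey genes did not pass.

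For each of the 9 genes, the profile over the 7 arrays was set against those of 11878 other named genes above the background stand-in, each centred on its own mean. Likeness is the root mean square difference of the centred log2 levels, which is smaller for closer profiles. Igf1 was closest to Sema3c, a secreted guidance factor gene (0.044), and Ets1, a transcription factor gene (0.046). Igf1r was closest to Nfix (0.03) and Atg9a (0.033), and Igf2r to Arf1 (0.014) and Ipo4 (0.024). Igfbp7 was closest to the zinc transporter gene Slc39a14 (0.062) and to Ifna4 (0.068), an interferon gene with near-identical relatives, whose signal is therefore uncertain. Igfbp5 was closest to Rtl8c (0.043) and Arfgap3 (0.085), and Igfbp4 to Uggt2 (0.067), which checks glycoprotein folding, and the collagen-binding integrin gene Itga1 (0.074). The nearest profiles were those of Adcy2 (0.083) and Hacd4 (0.086) for Igfbp3, of Snu13 (0.034) and the lipid synthesis gene Acly (0.048) for Igfbp2, and of Fancb (0.09) and Tppp3 (0.091) for Igfbp6. These differences grow with a gene's own change, so they are not compared between genes.

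**Figure D5:**
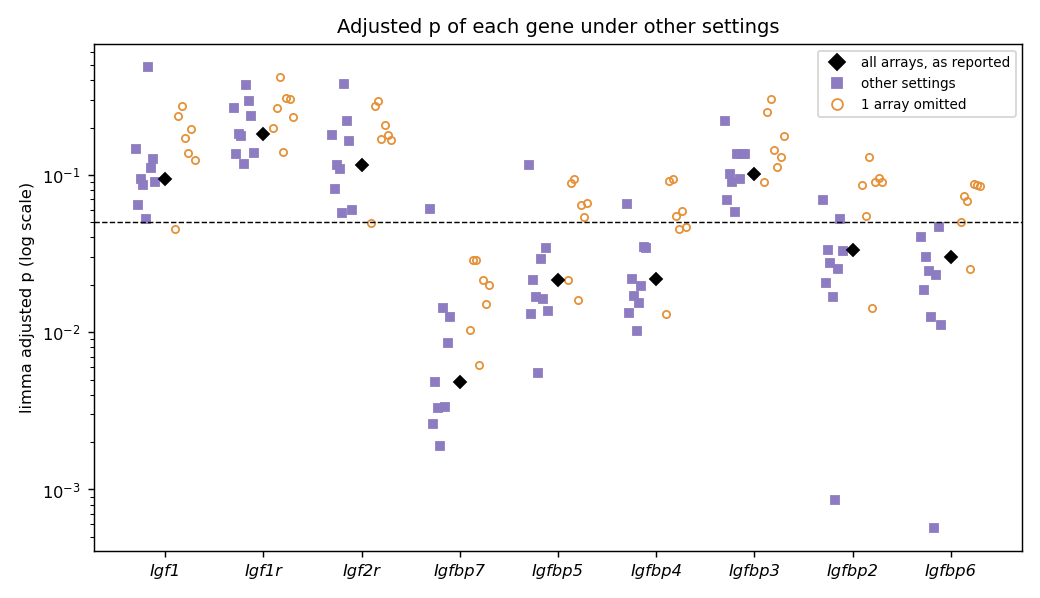
limma adjusted p (log axis) of each gene with all arrays (black diamonds), under 9 other settings (purple squares) and with 1 of the 7 arrays omitted (open orange circles), with a dashed line at 0.05. Igfbp7 stays under the line in every omission, while Igfbp2 and Igfbp6 do so in 1 omission each, and Igf1 and Igf2r cross under it in 1.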

How the data were processed

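RNA was measured on 1-colour arrays in 3 blastemas and 4 uninjured digits, from 400 ng of total RNA per sample per the labels' protocols, and the labels call the samples of each group biological replicates. The deposited log2 values were made by the authors with oligo and RMA, per the submitters' processing notes. RMA evens out array distributions, so a global change of RNA content would not show. Versions, settings and build: not given in the sources used here. Genes came from the 23521 of 41345 probe sets with exactly 1 symbol (1814 had several and 16010 none), and a gene with several was represented by its brightest one on average.

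Blastema was compared with uninjured digit by lmFit and eBayes of limma 3.58.1 in R 4.3.3, all 7 arrays entering without covariates or a level filter. The two-sided p-values of all 22180 genes were adjusted together (Benjamini-Hochberg). The fit was tested on simulated data. Alternatives were a block for the replicate number, removal of genes under the 30th percentile of mean level, the mean of all probe sets, trended robust variances, array weights, scaling to 8 reference genes or the median, all probe sets, and omitted arrays.

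The members and the gene lists were chosen with earlier results of these data known. In each pathway list the called genes were named (at most 4, by size of change), or else the gene with the smallest p. For likeness the 2 closest genes were named. Lists hold genes not analysed here, 1 of 8 ligand and carrier genes, 1 of 8 growth hormone axis genes, 7 of 30 signalling genes, 1 of 8 brakes and 2 of 3 mRNA-binding genes. Promoters are RefSeq's (GRCm38.p6, all 9 genes matched by symbol). Probe coordinates are not printed.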

Additional observations from a re-analysis of the deposited data

Results flagged for a closer look

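Of 19 IGF genes checked for an array apart from its group, 2 were marked among the 4 uninjured digits. For normal values without ties, the rule marks about 1 group in 20. Levels here can be equal on several arrays, as for Tbp (7.543 on uninjured replicates 2, 3 and 4). The rate at which chance marks a group of these values is therefore not known. Igf2 was low on uninjured replicate 3 (6.60, against 7.09 to 7.11 on the other uninjured digits), a gap of 0.96 of the group's range. Tsc2 was high on uninjured replicate 1 (8.14, against 7.96 to 7.99), a gap of 0.831 of the range. Groups of 3, such as the blastemas, were not checked.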

How the results depend on the processing

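Beside 2139 genes called in all, with 3 of the 9 IGF genes higher and 2 lower, omitting 1 array gave 845 to 2295 genes in all, 1 to 5 IGF genes higher and 0 to 2 lower. Without blastema replicate 2 or 3 the total was 886 and 845, and without uninjured replicate 2, 3 or 4 it was 1187, 1145 and 1244. The 5 higher genes were found without blastema replicate 1. With the replicate number as a block, in which uninjured replicate 4 stands alone and adds nothing, 599 genes passed, with 0 IGF genes higher and 1 lower (Igfbp6). Same-numbered arrays deviated from their group means with correlations of 0.286, 0.151 and -0.065 for replicates 1, 2 and 3. Arrays of different number gave -0.223 to 0.14. The numbers are thus not shown to pair samples, and pairing is not excluded either, as replicates 1 and 2 gave the highest values. Scaling to 8 reference genes gave 9538 called genes, 610 higher and 8928 lower in place of 1105 and 1034, and moved the median of all genes to -0.313. These reference genes themselves changed by -0.82 (Rplp0) to 1.34 (B2m). It left 3 IGF genes higher and 2 lower, with Igf1r at -0.13, Igf2r at -0.11 and Igf2 at -0.054, each opposite in sign to the reported value. Testing all probe sets left 1 IGF gene lower. Without both arrays numbered 1, 3 IGF genes were higher and 2 lower. Igfbp7 passed in 15 of 16 alternatives, the block being the exception (adjusted p = 0.0608). The cause of these shifts was not tested.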
